A study of Mus musculus with 20 samples.

Results

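The MHC class II antigen presentation genes described here are 8 genes, *Cd74*, *H2-Aa*, *H2-Ab1*, *H2-Eb1*, *H2-DMa*, *H2-DMb1*, *Ciita* and *Ctss*, taken by symbol from the 54532 Ensembl genes counted in mouse liver. Each symbol matched 1 Ensembl gene. A CPM (counts scaled to the size of each library, with TMM factors for its composition) of at least 2 in at least 3 of the 20 mice was needed for testing, and 8 of the 8 genes passed, as did 12289 genes in all. The genes were chosen for their role, with earlier results of these data known.

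Male C57BL/6 mice ate a high-fat diet (HFD) for the 12 weeks before surgery and then had Roux-en-Y gastric bypass (RYGB), an operation that leads food past most of the stomach and the upper small intestine, or a sham operation. They ate chow or HFD for 8 weeks after surgery, which gave 2 chow groups (Sham Chow and RYGB Chow) and 2 HFD groups (Sham HFD and RYGB HFD), each with 5 mice and 1 liver library per mouse. The chow groups had therefore also eaten HFD before surgery. The study reports that Sham HFD mice were heavier than the mice of all other groups. In comparisons with Sham HFD, body weight cannot be told apart from diet or surgery. The age of the mice is not given in the sources used here.

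MHC class II molecules are pairs of an alpha and a beta chain that hold peptides from swallowed proteins on the cell surface, where CD4 T cells read them. The invariant chain (Cd74) escorts new pairs to the endosome, the protease cathepsin S (Ctss) trims it there, and H2-DM exchanges the fragment that is left for a peptide. The transactivator Ciita switches on the genes of the chains, Cd74 and H2-DM in dendritic cells, B cells and macrophages, and interferon-gamma induces it in many other cells. In the liver, Kupffer cells, dendritic cells and sinusoidal endothelial cells are known to present antigen, while hepatocytes make up most of the tissue. In bulk liver, fewer cells of a type and less RNA per cell cannot be told apart.

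Between 14604854 and 22537498 reads were counted per mouse, and TMM factors lay between 0.916 and 1.13. The 5 hepatocyte markers summed to between 71894 and 123048 CPM, so that liver transcripts were present in every library, and the 7 Kupffer cell markers to between 109 and 554 CPM. The labels name no sequencing batch. RYGB Chow replicate 5 stood apart from the other 19 mice in most of the genes below, so results that rest on it are given with and without it.

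Class II promoters are known for a shared X box and Y box, bound by RFX and NF-Y, at a fixed spacing just before the start. RefSeq (GRCm38.p6) gave promoter windows, 250 bases before to 50 after the start, for 5 of the 8 genes, *H2-Aa*, *H2-Eb1*, *H2-DMa*, *H2-DMb1* and *Ctss*. The letters GNAACT (part of the X box) followed within 40 bases by TGATTGG (the Y box) were searched after the windows had been viewed. In the windows of the 5 genes all letters were searched in the direction of the gene only. For the shares over the whole table they were searched on both strands. The pair was found in 3 of the 5 genes and in 94 of the 32851 windows of the table (0.286%), while TGATTGG alone was in 7.82% and GNAACT alone in 42.8% of them. The distance from the first letter of one to the first letter of the other was 31 bases in *H2-Aa*, 30 in *H2-Eb1* and 31 in *H2-DMb1*, and the X letters began 81, 91 and 94 bases before the RefSeq start. The window of *H2-DMb1* covers chr17:34152941-34153240, and the annotated span of the gene begins inside it, at 34153072 (plus strand). Its X letters and Y box lie inside that span. The stretches of *H2-Aa* (chr17:34287852-34287924, minus strand) and *H2-Eb1* (chr17:34305756-34305827, plus strand) are shown because these genes followed *Cd74* most closely among the mice. The stretch of *Ctss* (chr3:95526725-95526785, plus strand) is shown because its window, in the direction searched, held neither box pair nor TGATTGG. It held an interferon-stimulated response core, a GAAA, then NN, then another GAAA, 21 bases before the start. Such a core is in 3.44% of all windows on either strand. Sequences run 5′ to 3′, with the X letters, the Y box and the interferon-stimulated response core in capitals.
H2-Aa: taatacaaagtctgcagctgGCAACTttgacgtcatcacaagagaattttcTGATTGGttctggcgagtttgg
H2-Eb1: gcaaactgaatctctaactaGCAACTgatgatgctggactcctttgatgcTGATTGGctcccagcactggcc
Ctss: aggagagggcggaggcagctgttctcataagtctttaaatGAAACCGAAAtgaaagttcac

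A match of letters describes the window and was not tested as a binding site. In the direction searched, the 2 windows of *H2-DMa* held neither the pair nor TGATTGG nor the interferon-stimulated response core. They cover chr17:34122582-34122881 and chr17:34125268-34125567, inside the annotated span of the gene, which begins at 34119541 (plus strand). The stretch before that first base was therefore not searched. *Cd74*, *H2-Ab1* and *Ciita* have no window in the table.

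The 4 genes of the classical class II complex with their escort lie on chromosomes 17 and 18 (GRCm38). *H2-Ab1* (ENSMUSG00000073421, 34257689 to 34269419, plus strand), *H2-Aa* (ENSMUSG00000036594, 34282744 to 34287823, minus strand) and *H2-Eb1* (ENSMUSG00000060586, 34305867 to 34316674, plus strand) are neighbours on chromosome 17. *H2-DMa* (ENSMUSG00000037649, 34119541 to 34139101) and *H2-DMb1* (ENSMUSG00000079547, 34153072 to 34160230) lie on the same chromosome. *Cd74* (ENSMUSG00000024610) is on chromosome 18 from 60803848 to 60812652, *Ciita* (ENSMUSG00000022504) on chromosome 16 from 10480059 to 10528418 and *Ctss* (ENSMUSG00000038642) on chromosome 3 from 95526786 to 95556403. C57BL/6 mice carry a defective *H2-Ea*, the alpha chain that would pair with H2-Eb1, and its pseudogene *H2-Ea-ps* had 0 counts in the 20 libraries, which allows up to 0.214 CPM in the smallest of them.

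Per kilobase of exon, *Cd74* was the most abundant of the 8 genes in each group, with group means from 44.7 to 63.6 CPM per kb. *Ctss* followed with 14.7 to 26.0 CPM per kb, then *H2-Eb1* with 10.7 to 16.4, *H2-Ab1* with 10.5 to 14.3 and *H2-Aa* with 6.91 to 9.62. The group means of *H2-Eb1* and *H2-Ab1* overlapped and cannot be ordered. The peptide exchange genes were lower, *H2-DMb1* at 1.66 to 2.99 and *H2-DMa* at 0.801 to 1.36 CPM per kb, and *Ciita* was the lowest at 0.190 to 0.282 CPM per kb. *Ciita* rested on 12 to 85 counts per mouse, *H2-DMb1* on 24 to 167 and *H2-DMa* on 31 to 133, against 777 to 3523 for *Cd74*. Fewer counts did not always go with a larger error. In Sham Chow vs. RYGB Chow the SE of the log2 fold change was 0.39 for *Ciita*, 0.33 for *H2-DMb1* and 0.24 for *H2-DMa*. It was 0.25 for *Cd74* and 0.34 for *H2-Eb1*.

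**Figure D1:**
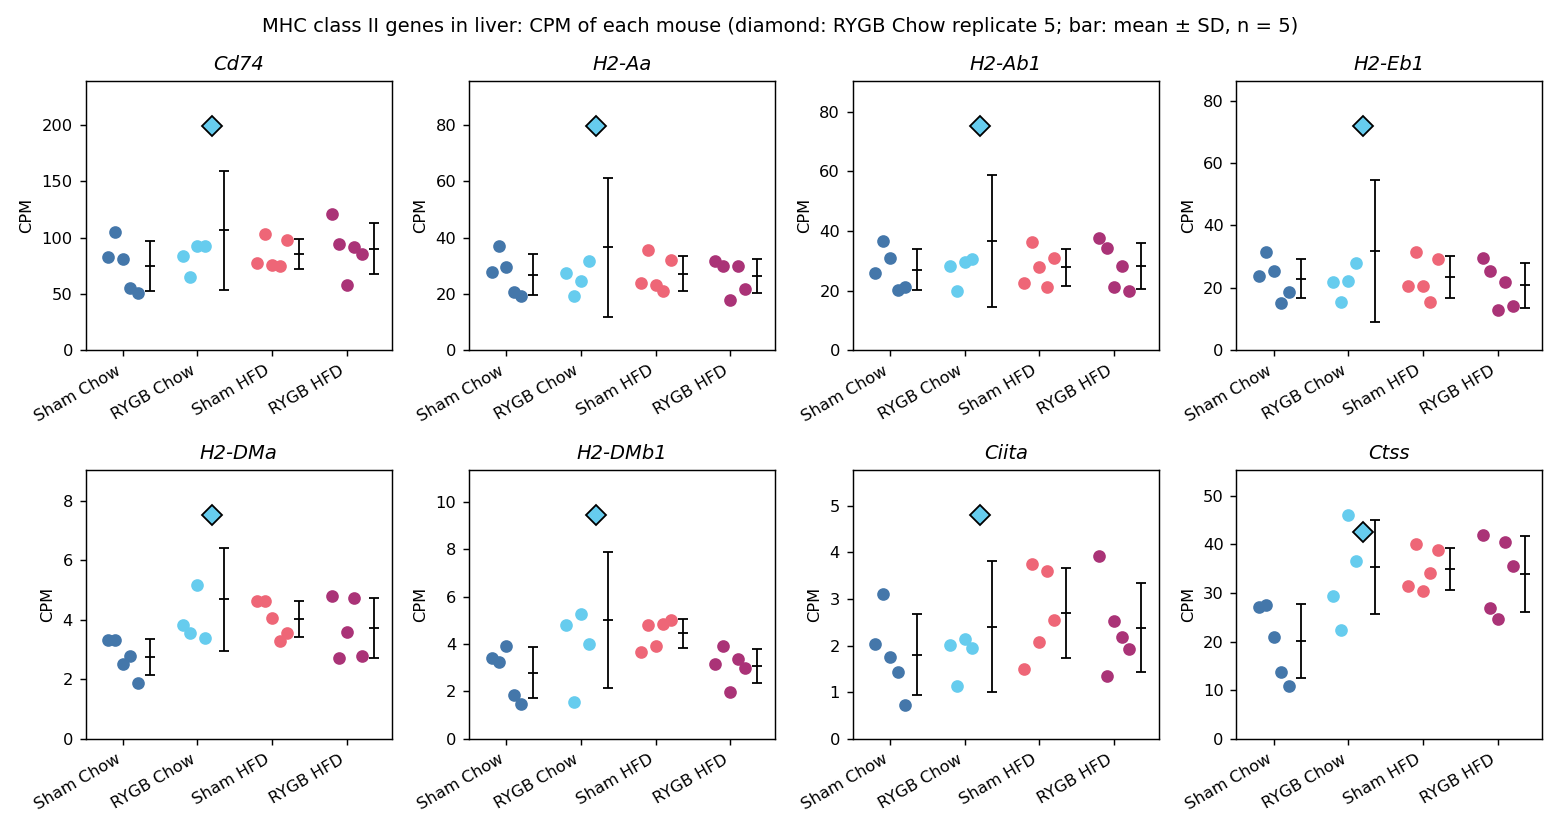
CPM of each of the 8 genes (vertical axis, from 0) in each mouse of the 4 groups, with the mean ± SD of 5 mice as black bars. RYGB Chow replicate 5 (diamond) has the highest value of the 20 mice in 7 panels and the second highest in the panel of *Ctss*, where Sham Chow lies below Sham HFD.

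In RYGB Chow replicate 5, *Cd74* stood at 199 CPM, while the other 19 mice lay between 50.6 and 121 CPM. The chain genes were as far apart: *H2-Aa* was 79.8 CPM (others 17.9 to 37.2), *H2-Ab1* 75.3 CPM (19.7 to 37.6) and *H2-Eb1* 71.9 CPM (13.03 to 31.6). *H2-DMa* was 7.53 CPM (1.88 to 5.16), *H2-DMb1* 9.45 CPM (1.45 to 5.27) and *Ciita* 4.81 CPM (0.727 to 3.92). These 7 genes had their highest value of all mice there. *Ctss* was 42.5 CPM in this mouse and 46.1 CPM in RYGB Chow replicate 3, so it ranked second.

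The same mouse had the highest summed level of 14 interferon-gamma genes, 708 CPM against 294 to 430 CPM in the others, led by the interferon-induced GTPase *Igtp* with 209 CPM (13.6 to 44.2). The interferon-induced transcription factor *Irf1* was 65.3 CPM (23.5 to 40.4) and the T-cell attracting chemokine *Cxcl9* 56.2 CPM (5.88 to 23.02). The 6 T and NK cell markers summed to 9.96 CPM (1.29 to 3.56), with *Cd8a* at 2.66 CPM (0.0539 to 0.802), and the 15 class I genes to 7423 CPM (4317 to 5487). The 7 Kupffer cell markers summed to 298 CPM, rank 9 of 20, the 8 dendritic cell markers to 12.3 CPM, rank 16, and the 5 sinusoidal endothelium markers to 70.4 CPM, the lowest of the 20 mice. The 7 B cell markers summed to 11.2 CPM, rank 5, where the other RYGB Chow mice had 2.80 to 6.10 CPM. The 5 pan-leukocyte markers summed to 59.9 CPM, rank 6, and the 5 hepatocyte markers to 123048 CPM, rank 1. *Ifng* itself had 1 count in this mouse and 9 counts over all mice. The part of these lists in the class II level of this mouse was not tested.

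On chow, surgery was compared in Sham Chow vs. RYGB Chow. The 8 estimates lay above 0, between 0.40 and 0.83 on the log2 scale (median 0.49, against -3.64e-05 over all tested genes), and 0 of the 8 genes passed edgeR's quasi-likelihood test after Benjamini-Hochberg adjustment over all tested genes, where 0.057% of all genes passed. At an unadjusted p under 0.05 there were 3, *Ctss*, *H2-DMa* and *H2-DMb1*, where 10.8% of all genes were. DESeq2 called 1, *Ctss* (log2 fold change 0.81, adjusted p = 0.0483), and limma-voom 0.

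*Cd74* was 83.2, 105, 80.7, 55.5 and 50.6 CPM in the Sham Chow mice and 83.4, 65.3, 92.6, 93.0 and 199 CPM in the RYGB Chow mice. The groups overlapped in all but the last mouse, and the log2 fold change of 0.51 (SE 0.25, 95% interval -0.02 to 1.03, edgeR adjusted p = 0.475) became 0.15 (SE 0.20) without it. Without RYGB Chow replicate 5, *H2-Aa* went from 0.44 to -0.07, *H2-Ab1* from 0.43 to -0.01, *H2-Eb1* from 0.47 to -0.08 and *Ciita* from 0.40 to -0.01. The 3 genes with an unadjusted p under 0.05 kept more of their difference, with *H2-DMa* at 0.52 from 0.76, *H2-DMb1* at 0.47 from 0.83 and *Ctss* at 0.74 from 0.81, and the count of called genes stayed at 0, with 2 at an unadjusted p under 0.05.

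*H2-DMa*, the alpha chain of the peptide exchanger, was 3.33, 3.31, 2.50, 2.78 and 1.88 CPM in Sham Chow and 3.81, 3.55, 5.16, 3.37 and 7.53 CPM in RYGB Chow. No RYGB Chow mouse lay below a Sham Chow mouse, although the nearest, at 3.33 and 3.37 CPM, were almost level (p = 0.00794 in an exact two-sided permutation test, the smallest that 5 mice against 5 allow). It was the 1 gene of the 8 whose groups did not overlap in this comparison, where 1.33% of all tested genes did not. Its log2 fold change was 0.76 (SE 0.24, interval 0.26 to 1.25, edgeR adjusted p = 0.257).

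*Ctss* was 27.0, 27.6, 20.95, 13.7 and 10.8 CPM in Sham Chow and 29.3, 22.4, 46.1, 36.5 and 42.5 CPM in RYGB Chow. The groups overlapped through RYGB Chow replicate 2, which lay among the Sham Chow mice. The log2 fold change was 0.81 (SE 0.23, interval 0.33 to 1.29, edgeR adjusted p = 0.203). *H2-DMb1*, the beta chain of the exchanger, was 3.43, 3.26, 3.93, 1.86 and 1.45 CPM in Sham Chow and 4.79, 1.56, 5.27, 4.01 and 9.45 CPM in RYGB Chow (log2 fold change 0.83, SE 0.33, interval 0.14 to 1.52, edgeR adjusted p = 0.36). Here too RYGB Chow replicate 2 lay low, second lowest of the 10 mice.

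The estimates of the Kupffer cell markers had the same sign as that of *Ctss* in this comparison. The 7 Kupffer cell markers had log2 fold changes between 0.80 and 1.28 (median 0.89). At an unadjusted p under 0.05 there were 7 of them, where 10.8% of all genes were. edgeR called 0, where 0.057% of all genes passed. The sum of the markers was 109 to 292 CPM in Sham Chow and 229 to 554 CPM in RYGB Chow. The nearest to the threshold were *Clec4f*, a lectin of Kupffer cells (0.82, adjusted p = 0.148 in edgeR), and *Csf1r*, the receptor of a macrophage growth factor (0.89, adjusted p = 0.197 in edgeR). Their part in the level of *Ctss* was not tested.

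On HFD, surgery was compared in Sham HFD vs. RYGB HFD, and no class II gene passed there. In edgeR, 0 of the 8 were called, where 16.4% of all tested genes were, and 0 had an unadjusted p under 0.05, where 30.7% of all genes had, and DESeq2 and limma-voom also gave 0 and 0. The groups overlapped for 8 of the 8, while 14.7% of all genes did not overlap. The log2 fold changes ran from -0.53 to 0.07 (median -0.08). *Cd74* was 77.6, 103, 75.5, 74.8 and 97.7 CPM in Sham HFD and 121, 94.0, 57.8, 92.0 and 85.2 CPM in RYGB HFD, the RYGB HFD mice lying on both sides of the Sham HFD mice. The interval of its log2 fold change, -0.45 to 0.59, holds a fold change of either sign. *Ctss* had an interval of -0.52 to 0.43 around -0.05. The 5 tested markers of monocytes and recruited macrophages lay below 0 there (median -1.02). Of these *Ccr2* was called lower (-1.11), but not without Sham HFD replicate 2 or 5. The 5 pan-leukocyte markers lay below 0 (median -0.30) and 6 of the 7 Kupffer cell markers above 0 (median 0.12), with 0 called. The dendritic cell marker *Itgax* was called lower (-1.17), but not in several fits without 1 mouse. The part of these markers in *Ctss* was not tested.

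*H2-DMb1* was the gene furthest from 0 in this comparison, with 3.65, 4.81, 3.93, 4.85 and 5.00 CPM in Sham HFD and 3.16, 3.90, 1.96, 3.37 and 2.99 CPM in RYGB HFD. One RYGB HFD mouse, at 3.90 CPM, lay above the lowest Sham HFD mouse, and the other 4 lay below them all. The exact permutation test gave p = 0.0159 (two-sided), while edgeR gave -0.53 (SE 0.33, interval -1.22 to 0.16, adjusted p = 0.297).

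Diet in sham mice was compared in Sham Chow vs. Sham HFD, and *Ctss*, the protease that trims the invariant chain, rose. It was 10.8 to 27.6 CPM in the Sham Chow mice given above and 31.4, 39.9, 30.5, 34.1 and 38.8 CPM in Sham HFD, so that every Sham HFD mouse lay above the highest Sham Chow mouse (p = 0.00794, exact two-sided permutation test). The log2 fold change was 0.80 (SE 0.23, interval 0.32 to 1.27), a fold of 1.74, with an edgeR adjusted p of 0.0177. It was the 1 called gene of the 8, where 21.6% of all tested genes were called, and the 1 whose groups did not overlap, where 16.5% of all genes did not. DESeq2 and limma-voom called the same gene.

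The other 7 genes did not pass, and 1 of them, *H2-DMa*, had an unadjusted p under 0.05, which 35.7% of all genes had. *H2-DMa*, at 4.64, 4.62, 4.05, 3.29 and 3.55 CPM in Sham HFD, overlapped with Sham Chow through replicate 4 (log2 fold change 0.54, SE 0.24, interval 0.05 to 1.03, edgeR adjusted p = 0.104). *H2-DMb1* had 0.66 (interval -0.03 to 1.35) and *Ciita* 0.56 (interval -0.24 to 1.36). *Cd74* and the chain genes were nearer to 0, with 0.19 for *Cd74*, 0.01 for *H2-Aa*, 0.04 for *H2-Ab1* and 0.03 for *H2-Eb1*. The interval of *H2-Aa* ran from -0.60 to 0.63 and that of *H2-Eb1* from -0.67 to 0.73, so changes of up to those sizes in either direction were within the error.

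The ratio of *Ctss* to *Cd74* did not overlap between these groups. It was 0.214 to 0.325 in the Sham Chow mice and 0.387 to 0.456 in the Sham HFD mice. It was 0.285 to 0.440 in RYGB HFD, and in RYGB Chow it was 0.342 to 0.498 in 4 mice and 0.213 in replicate 5. Among the chain genes, *H2-Aa* over *H2-Ab1* was between 0.830 and 1.10 in the 20 mice and *H2-Eb1* over *H2-Ab1* between 0.612 and 0.955, with 0.612 to 0.789 in RYGB HFD and 0.751 to 0.915 in Sham Chow.

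Some macrophage and leukocyte markers were also called in this comparison, where 21.6% of all genes were. Of the 7 Kupffer cell markers 4 were called higher and 0 lower (median log2 fold change 0.81), with *Adgre1*, the macrophage surface protein F4/80, at 1.31 (edgeR adjusted p = 0.0181), *Cd5l* at 0.88, *Csf1r* at 0.81 and *Clec4f* at 0.60. *Adgre1* kept its call in 20 of 20 fits without 1 mouse. *Csf1r* lost it without Sham Chow replicate 4 or 5 or Sham HFD replicate 4 (0.66 to 0.76), *Cd5l* without Sham Chow replicate 3, 4 or 5 or Sham HFD replicate 5 (0.73 to 0.86), and *Clec4f* without Sham Chow replicate 3, 4 or 5 or Sham HFD replicate 3, 4 or 5 (0.49 to 0.62). Of the 5 tested markers of monocytes and recruited macrophages 4 were called higher, among them the chemokine receptor *Ccr2* (1.56, edgeR adjusted p = 0.0016), and of the 5 pan-leukocyte markers 4, among them *Ptprc*, which encodes CD45 (1.11, edgeR adjusted p = 0.000459). *Trem2* and *Cx3cr1* of the first list, named with the next after their values were seen, both lost their calls without Sham Chow replicate 1, 3, 4 or 5 or Sham HFD replicate 1 or 5, which left 2 of the 5 called (*Trem2* then 1.05 to 1.41, *Cx3cr1* 0.96 to 1.18). *Trem2* also lost its call without Sham HFD replicate 3 or 4 or RYGB Chow replicate 1 or 4 (1.31 to 1.38). *Cx3cr1* lost its call without Sham HFD replicate 2 as well (0.85). *Coro1a* of the second kept its call in 8 of 20 fits without 1 mouse, and each of the 5 Sham Chow mice was among the 12 without which it lost it (0.71 to 0.86 over these 12). The markers that did not pass were *Vsig4* (0.63), *Timd4* (0.67) and *Marco* (0.91) of Kupffer cells, *Lyz2* (0.74) and *Cd52* (0.47). Of the 8 dendritic cell markers 3 were tested and 1 was called higher, *Itgax* (1.30, edgeR adjusted p = 0.023), which lost its call without Sham Chow replicate 4 or 5 or Sham HFD replicate 2 or 5 (1.15 to 1.22), while *Cd209a* did not exceed 0.439 CPM and *Flt3* 1.04 CPM in any mouse. The Kupffer cell sum was 263 to 360 CPM in Sham HFD, against 109 to 292 CPM in Sham Chow, and its part in the rise of *Ctss* was not tested.

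Diet in RYGB mice was compared in RYGB Chow vs. RYGB HFD, where edgeR called 0 of the 8 genes and 3.65% of all tested genes. The groups overlapped for 8 of the 8, and 5.05% of all genes did not overlap. There was 1 at an unadjusted p under 0.05 (18.8% of all genes), *H2-DMb1* (-0.70, SE 0.33, interval -1.39 to -0.01, edgeR adjusted p = 0.258), which was also the 1 in DESeq2, where 0 were called, and limma-voom gave 0 and 0. The 8 estimates lay below 0, from -0.70 to -0.01 (median -0.35), and without RYGB Chow replicate 5 they lay between -0.35 and 0.39, 5 above and 3 below 0. *H2-DMb1* was then -0.35 (SE 0.31), *H2-Eb1* -0.07 from -0.61 and *Ciita* 0.39 from -0.01. *Ctss* was 42.0, 26.8, 24.6, 40.5 and 35.5 CPM in RYGB HFD, within the range of the RYGB Chow mice, with a log2 fold change of -0.06 (interval -0.53 to 0.41).

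Over the 4 groups, *Ctss* was lowest in Sham Chow, 20.03 ± 7.60 CPM (mean ± SD, n = 5), followed by RYGB HFD with 33.9 ± 7.90, Sham HFD with 34.9 ± 4.28 and RYGB Chow with 35.3 ± 9.66 CPM. The last 3 did not differ beyond their spread. *Cd74* ran from 75.0 ± 22.3 CPM in Sham Chow over 85.7 ± 13.6 in Sham HFD and 90.1 ± 22.7 in RYGB HFD to 107 ± 53.0 CPM in RYGB Chow (n = 5 each), and no neighbours in that order differed beyond their spread. *H2-Aa*, *H2-Ab1* and *H2-Eb1* had their highest mean in RYGB Chow as well, where the SD, 22.0 to 24.6 CPM, came with a single mouse. *H2-DMa* and *H2-DMb1* had their lowest mean in Sham Chow, at 2.76 ± 0.608 and 2.79 ± 1.07 CPM, and the next, 3.72 ± 1.01 and 3.08 ± 0.713 CPM in RYGB HFD, overlapped with it within 1 SD of each mean.

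**Figure D2:**
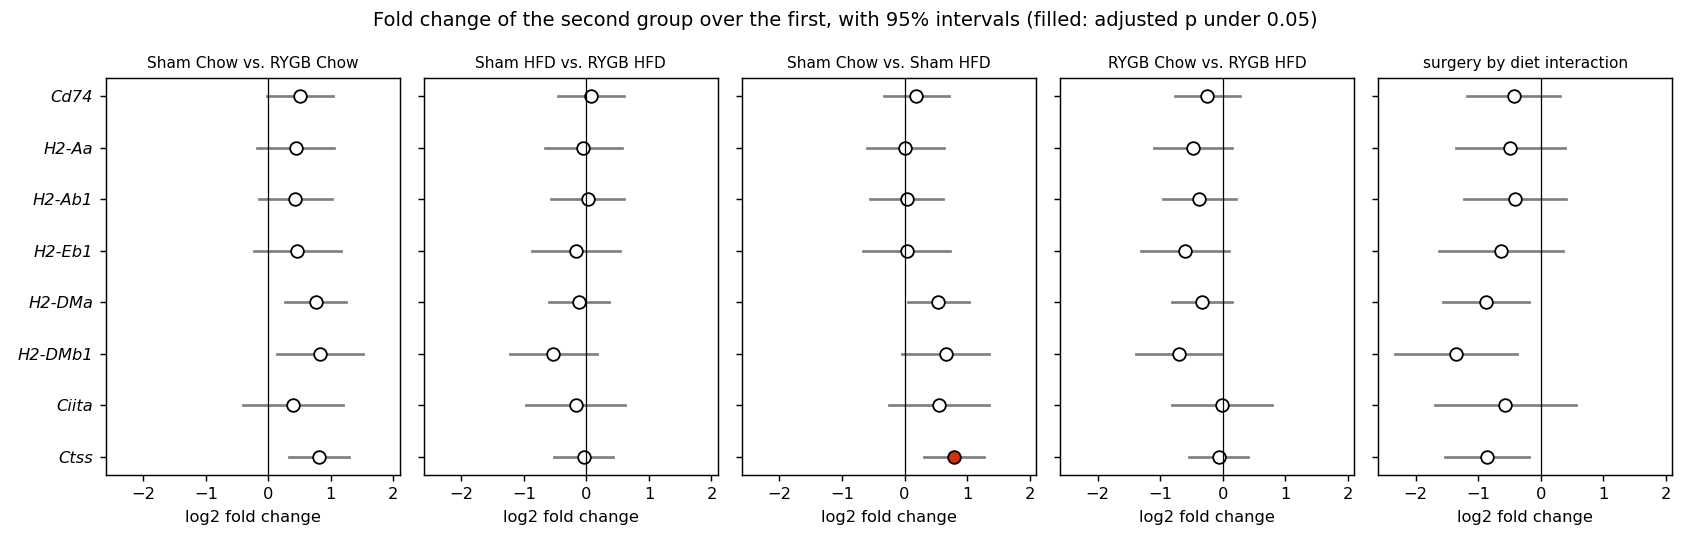
Log2 fold change of the second group over the first (horizontal axis) for the 8 genes in the 4 comparisons and the interaction, as points with 95% intervals from edgeR. The filled point is *Ctss* in Sham Chow vs. Sham HFD, at 0.80, and the other 39 points are open.

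Whether surgery changed the effect of the diet was tested as the interaction, the diet difference in RYGB mice less that in sham mice. edgeR called 0 of the 8 genes, where 5.06% of all tested genes were called, and 3 had an unadjusted p under 0.05, where 20.8% of all genes had. These were *H2-DMb1* (-1.36, SE 0.47, edgeR adjusted p = 0.0983), *H2-DMa* (-0.87, SE 0.33, edgeR adjusted p = 0.132) and *Ctss* (-0.86, SE 0.32, edgeR adjusted p = 0.128). *H2-DMb1* was called by DESeq2 (-1.37, adjusted p = 0.0465), which made 1 call, and in edgeR without RYGB Chow replicate 2 (-1.59, adjusted p = 0.0206), and limma-voom made 0 calls. Without RYGB Chow replicate 5 the values were -1.005 for *H2-DMb1*, -0.64 for *H2-DMa* and -0.79 for *Ctss*. *Cd74* moved from -0.44 to -0.09 and *H2-Aa* from -0.49 to 0.01.

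*H2-DMb1* was higher in Sham HFD (4.45 ± 0.612 CPM) than in Sham Chow and lower in RYGB HFD (3.08 ± 0.713 CPM) than in RYGB Chow (5.02 ± 2.86 CPM, n = 5 each), the pattern that the interaction measures, though neither diet comparison passed alone. Its transcript shares 95.7% of 1081 aligned bases with that of *H2-DMb2*, which was 0.133 to 1.53 CPM, so reads of the pair may have been split or left out, and the value of *H2-DMb1* is uncertain to that extent. *H2-DMa* overlaps with *Brd2* (87.2 to 146 CPM) and *Ciita* with *Dexi* (13.4 to 32.3 CPM) on the opposite strand. The libraries mark the strand, but the strand setting of the counting is not stated.

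Within groups, the class II genes varied together. With each group's mean removed from log2(CPM + 0.5), Pearson's r with *Cd74* over the 20 mice was 0.96 for *H2-Aa*, 0.93 for *H2-Eb1*, 0.92 for *H2-Ab1*, 0.84 for *H2-DMb1*, 0.78 for *Ctss*, 0.75 for *Ciita* and 0.67 for *H2-DMa*. Spearman's rho was 0.94, 0.92, 0.87, 0.75, 0.82, 0.65 and 0.55 in the same order. The adjusted p of r, over the 25 relations computed, ran from 8.33e-05 to 0.0177 (permutation test, two-sided, mice permuted within groups) and that of rho from 6.25e-05 to 0.04 (permutation test, two-sided). Without the 2 mice farthest from the median of *Cd74*, Sham Chow replicate 2 and RYGB Chow replicate 5, r was 0.91 for *H2-Aa*, 0.87 for *H2-Eb1*, 0.83 for *H2-Ab1*, 0.77 for *H2-DMb1* and 0.84 for *Ctss*, but 0.54 for *Ciita* and 0.41 for *H2-DMa*. The relations of the last 2 thus rest in part on those mice.

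Summed marker and response genes were set against *Cd74* in the same way. *Cd74* followed the interferon-gamma genes with r = 0.77 (rho 0.69, adjusted p = 0.000958 and 0.00415, permutation test), and 0.61 without the 2 farthest mice. It had r = 0.71 with the pan-leukocyte markers (rho 0.73, adjusted p = 0.0121 and 0.00415, permutation test; 0.72 without them) and 0.74 with the T and NK cell markers (rho 0.57, adjusted p = 0.0121 and 0.027, permutation test; 0.49 without them). With the markers of monocytes and recruited macrophages r was 0.55 (rho 0.57, adjusted p = 0.0718 and 0.0377, permutation test), and 0.69 without the 2 mice. With the Kupffer cell markers r was 0.46 (rho 0.51, adjusted p = 0.13 and 0.0681, permutation test), but 0.67 without the 2 mice, and with the class I genes 0.64 (rho 0.44, adjusted p = 0.0912 and 0.0918, permutation test), but 0.21 without them. With the dendritic cell markers r was 0.30 (rho 0.33, adjusted p = 0.222 and 0.224, permutation test; 0.48 without the 2 mice). For the B cell markers it was 0.24 (rho -0.01, adjusted p = 0.525 and 0.976, permutation test; -0.15 without them). For the sinusoidal endothelium markers it was -0.13 (rho 0.02, adjusted p = 0.669 and 0.974, permutation test; 0.53 without them).

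The relations of *Ctss* with the same lists were added after the values had been seen. *Ctss* had r = 0.85 with the Kupffer cell markers (rho 0.82, adjusted p = 0.00139 and 0.00262, permutation test), 0.85 with the markers of monocytes and recruited macrophages (rho 0.79, adjusted p = 0.0008 and 0.00293, permutation test) and 0.90 with the pan-leukocyte markers (rho 0.93, adjusted p = 8.33e-05 and 6.25e-05, permutation test). Without its 2 farthest mice, Sham Chow replicate 5 and RYGB Chow replicate 2, these were 0.78, 0.72 and 0.85. With the interferon-gamma genes r was 0.41 (rho 0.50, adjusted p = 0.13 and 0.0272, permutation test), and without RYGB Chow replicate 5 it was 0.59, where that of *Cd74* was 0.60. It was 0.10 with the class I genes (rho 0.04, adjusted p = 0.749 and 0.945, permutation test). The difference between the relations of the 2 genes was not tested.

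**Figure D3:**
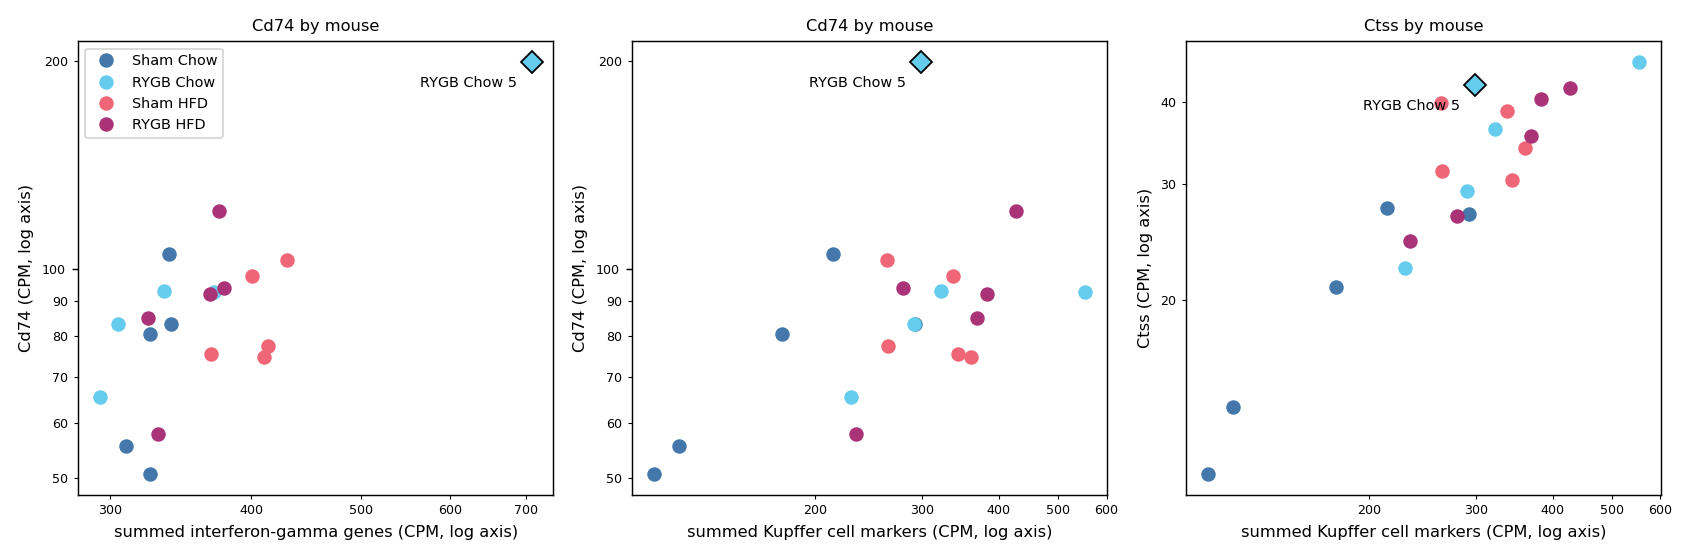
Each point is 1 mouse, coloured by group, with CPM on log axes: *Cd74* against the summed interferon-gamma genes, *Cd74* against the summed Kupffer cell markers and *Ctss* against the summed Kupffer cell markers. RYGB Chow replicate 5 (diamond, 199 CPM of *Cd74*) lies far above the others at a middling Kupffer cell sum of 298 CPM, and within the cloud for *Ctss*.

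The genes around the class II pathway, fixed as lists by role, were called in single members. Of the 20 accessory genes (peptide exchange, endosomal proteases and costimulation) 14 were tested. In Sham Chow vs. Sham HFD 5 were called higher and 1 lower, where 21.6% of all genes were called. Without RYGB Chow replicate 5 the protease *Sppl2a* (-0.24) was called lower as well, where 2880 of 12276 genes were called. The largest was *Wdfy4*, needed for cross-presentation in dendritic cells, which rose from 2.82 to 5.36 CPM in Sham Chow to 7.60 to 13.1 CPM in Sham HFD (1.40, SE 0.22, edgeR adjusted p = 0.000177). *Cd86*, a costimulator of T cells, rose by 1.08 on the log2 scale (edgeR adjusted p = 0.00767), *Ifi30*, a lysosomal thiol reductase, by 0.48 (edgeR adjusted p = 0.00766) and the protease *Ctsb* by 0.27 (edgeR adjusted p = 0.0127). The other 2 called genes, named after their values were seen, were the protease *Lgmn* (0.51) and the protease *Ctsh* (-0.21). *Lgmn* lost its call without Sham Chow replicate 3, 4 or 5 or Sham HFD replicate 4 or 5 (0.43 to 0.50), and *Ctsh* without Sham Chow replicate 2, 4 or 5 or Sham HFD replicate 1, 2 or 3 (-0.21 to -0.18).

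*Wdfy4* also rose in RYGB Chow vs. RYGB HFD, from 2.91 to 7.47 CPM to 8.57 to 12.5 CPM (1.18, SE 0.22, edgeR adjusted p = 0.00373), as the 1 accessory gene called there. In Sham HFD vs. RYGB HFD the 1 called gene of the list was the protease *Ctsd*, which fell by 0.28 on the log2 scale (edgeR adjusted p = 0.0143). Without RYGB Chow replicate 5 there were 3, with *Ctsb* and *Ctsh*. Of all tested genes 3.65% were called in RYGB Chow vs. RYGB HFD and 16.4% in Sham HFD vs. RYGB HFD. Between the chow groups 0 were called, where 0.057% of all genes were. There 2 had an unadjusted p under 0.05 in edgeR, where 10.8% of all genes had. These were *Cd86* (1.02, edgeR adjusted p = 0.177) and *Lgmn* (0.54, edgeR adjusted p = 0.23).

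Of the 12 regulators of class II transcription 11 were tested, all but *Irf4*. Of all tested genes edgeR called 21.6% in Sham Chow vs. Sham HFD, 16.4% in Sham HFD vs. RYGB HFD and 0.057% between the chow groups. In Sham Chow vs. Sham HFD *Spi1*, the myeloid factor PU.1, was called higher (0.89, edgeR adjusted p = 0.0241), and the RFX subunit *Rfxap* (-0.54, edgeR adjusted p = 0.00766) and the acetyltransferase *Kat2b* (-0.24, edgeR adjusted p = 0.0196) lower. *Rfxap* kept its call in 20 fits without 1 mouse. *Spi1* lost it without Sham Chow replicate 4 (0.77), Sham Chow replicate 5 (0.72) or Sham HFD replicate 2 (0.77), and *Kat2b* without Sham Chow replicate 1 (-0.20) or Sham HFD replicate 2 (-0.22). In Sham HFD vs. RYGB HFD the acetyltransferases *Crebbp* (0.38, edgeR adjusted p = 0.0111) and *Kat2b* (0.26, edgeR adjusted p = 0.0157) and the NF-Y subunit *Nfyc* (0.32, edgeR adjusted p = 0.0161) were called higher. *Nfyc* lost its call without Sham HFD replicate 5 (0.26) or RYGB HFD replicate 2 (0.28). Between the chow groups edgeR called 0, with 1 at an unadjusted p under 0.05, where 10.8% of all genes were. This was *Spi1* (0.91, edgeR adjusted p = 0.239).

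Of the 14 interferon-gamma genes 12 were tested. The shares of all tested genes called were again 21.6% in Sham Chow vs. Sham HFD, 16.4% in Sham HFD vs. RYGB HFD and 0.057% between the chow groups. In Sham Chow vs. Sham HFD the chemokine *Cxcl10* (1.35, edgeR adjusted p = 0.0223) and the guanylate-binding protein *Gbp3* (1.10, edgeR adjusted p = 0.025) were called higher. *Cxcl10* lost its call without Sham Chow replicate 3 or 4 (1.30 and 1.22), and *Gbp3* without Sham Chow replicate 3 or 5 or Sham HFD replicate 2 or 5 (0.99 to 1.06). Without RYGB Chow replicate 5, whose spread enters the shared fit, 5 were called, *Gbp2*, *Irgm1* and *Jak2* being the others. In Sham HFD vs. RYGB HFD *Cxcl10* was called lower (-1.48, edgeR adjusted p = 0.017), and without RYGB Chow replicate 5 *Irgm1* (-0.29) was as well. Between the chow groups edgeR called 0 of the 12, with 2 at an unadjusted p under 0.05, where 10.8% of all genes were. These were *Ifngr1* (0.26, edgeR adjusted p = 0.308) and *Igtp* (1.10, edgeR adjusted p = 0.417).

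Of the tested genes outside the 8, the 6 most like their mean standardized level over the 20 mice were *Icam1* (r = 0.83), *Rac2* (0.81), *H2-D1* (0.80), *Gbp2* (0.79), *Spi1* (0.78) and *Cyba* (0.78). These are given as a description with no test, and the 20 mice share the high value of RYGB Chow replicate 5. *Icam1* encodes an adhesion molecule, *Rac2* and *Cyba* parts of the phagocyte oxidase, and *H2-D1* a class I heavy chain. In that mouse *H2-D1* was 951 CPM, above the 683 CPM of the highest of the others, and *Gbp2* 18.1 CPM, above 11.5 CPM, while *Spi1* was 10.4 CPM and below the highest of the others, 11.3 CPM.

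**Figure D4:**
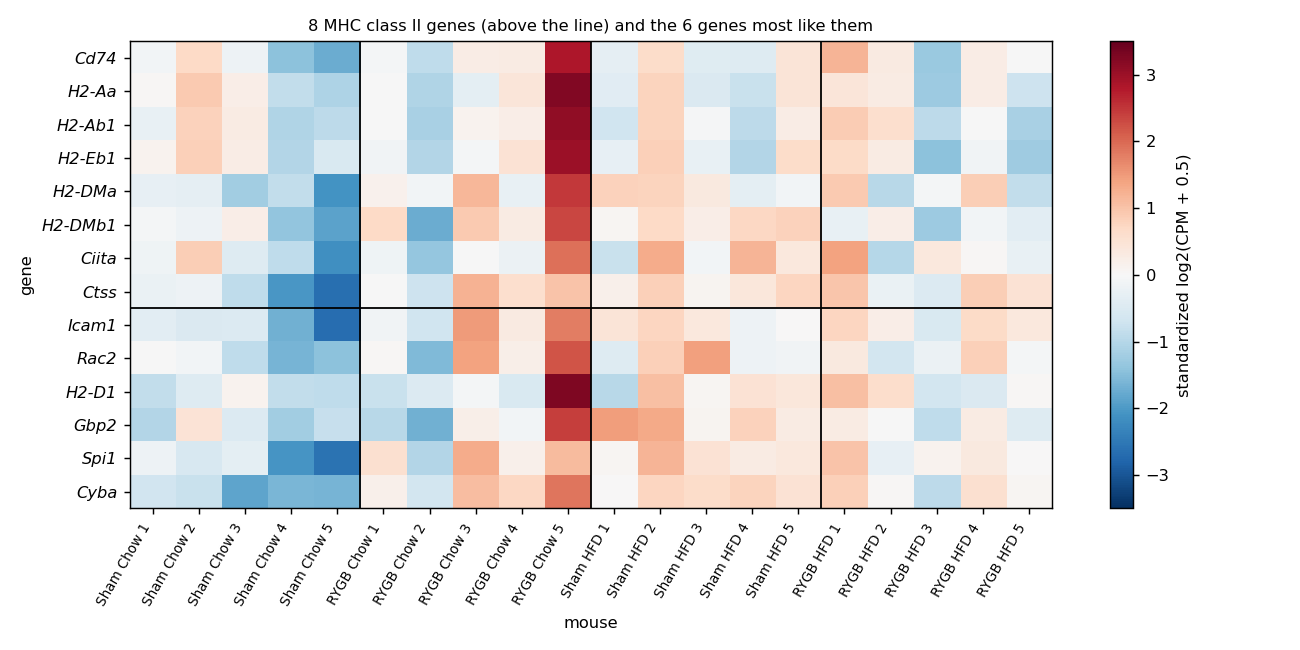
Standardized log2(CPM + 0.5) of the 8 class II genes and the 6 genes most like them (vertical axis) in each mouse (horizontal axis, by group), with red above and blue below a gene's mean over the 20 mice. The column of RYGB Chow replicate 5 is red throughout, and *Ctss* is blue in the 5 Sham Chow mice.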

How the data were processed

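Liver RNA of 20 mice was sequenced on strand-marked libraries, and the deposited values are raw counts per Ensembl gene. Per the submitters' processing notes and the study's methods, the authors trimmed reads with Trimmomatic 0.36, checked them with FastQC, aligned them to mm10 with HISAT2 2.1.0 and counted them with featureCounts 1.5.0-p3. The strand setting, the handling of reads that match several places and the annotation release are not given in the sources used here, and each of these could shift the value of a gene with a near copy or an overlapping gene. Groups were taken from the sample labels, and nothing links mice of different groups.

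Counts were fitted with edgeR 4.0.16 in R 4.3.3 (TMM scaling, 1 mean per group over all 20 mice, quasi-likelihood test, Benjamini-Hochberg adjustment over 12289 genes, threshold 0.05). Genes needed 3 or more mice with a CPM of 2 or higher. Alternatives were DESeq2 1.42.0, limma-voom (limma 3.58.1), other scalings, filters and pseudocounts, a replicate block and each mouse left out in turn. Single genes were compared by exact permutation of log2(CPM + 0.5), 252 splits, and relations within groups by 100000 permutations of mice within groups, for which 1e-05 is the smallest unadjusted p they can give. The fit was tested on simulated counts. Positions and symbols follow GENCODE M21, and overlaps and promoter windows RefSeq GRCm38.p6 and the same annotation.

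The 8 genes, the other gene lists and the tests were chosen with earlier results of these data known. The genes named are the 8, up to 4 called genes of smallest adjusted p from each other list and comparison, or up to 2 of smallest p where none was called, and the 6 most like the 8. Called genes of the marker lists are not all named above. In Sham HFD vs. RYGB HFD edgeR called 3 of the 5 hepatocyte markers higher (*Alb*, *Apoa1* and *Cyp2e1*) and 2 lower (*Ttr* and *Apoc3*), where 16.4% of all genes were called. Results without RYGB Chow replicate 5 for lists and relations, and the relations of *Ctss*, were added after the data had been seen. Depth was 14604854 to 22537498 counts (median 19056997), and each mouse gave 1 library.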

Additional observations from a re-analysis of the deposited data

Results flagged for a closer look

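In groups of 5 mice, a value counts as far from the rest when its gap to the nearest mouse exceeds 0.71 of the range of the group. Of 84 groups of values tested, 12 did, where chance gives about 5%, and 9 of these 12 were RYGB Chow replicate 5 within RYGB Chow. In that mouse *Cd74* was 199 CPM (the other 4 mice 65.3 to 93.0), *H2-Aa* 79.8 (19.3 to 31.6), *H2-Ab1* 75.3 (19.8 to 30.6), *H2-Eb1* 71.9 (15.4 to 27.8) and *Ciita* 4.81 CPM (1.13 to 2.14). Its summed class II accessory genes were 2783 CPM (2387 to 2472), its interferon-gamma genes 708 CPM (294 to 371), its class I genes 7423 CPM (4317 to 4693) and its T and NK cell markers 9.96 CPM (1.29 to 2.36). The 9 values come from a single mouse and are not independent of each other.

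The summed class II regulators were far from the rest in RYGB Chow replicate 3, with 325 CPM (283 to 294), and in Sham HFD replicate 3, with 275 CPM (258 to 261). RYGB Chow replicate 3 also had the highest Kupffer cell sum of its group, 554 CPM (229 to 322), and the highest *Ctss* of the 20 mice, 46.1 CPM.

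In the interaction, edgeR called 2 marker genes among the lists, where 5.06% of all tested genes were called, and neither call held in most fits without 1 mouse. The monocyte and recruited macrophage marker *Gpnmb* had -3.56 on the log2 scale (adjusted p = 0.044) and kept its call in 4 of the 20 fits without 1 mouse, not in that without RYGB Chow replicate 5 (-3.20). The hepatocyte marker *Apoa1* had 0.72 (adjusted p = 0.0423) and kept it in 6 of 20, with 0.81 without RYGB Chow replicate 5.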

How the results depend on the processing

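Of the 8 class II genes, the count called by edgeR was changed by DESeq2 to 1 in Sham Chow vs. RYGB Chow (*Ctss*) and to 1 in the interaction (*H2-DMb1*), and the cause was not tested. DESeq2 also called more genes in all, 92 against 7 in Sham Chow vs. RYGB Chow and 751 against 448 in RYGB Chow vs. RYGB HFD, while limma-voom called 3 and 421. In the fits without 1 mouse the count in the interaction ran from 0 to 1, the 1 coming without RYGB Chow replicate 2, and in the 4 comparisons it did not move. *Ctss* in Sham Chow vs. Sham HFD kept its call in the 20 fits without 1 mouse (log2 fold change 0.64 to 0.94, edgeR adjusted p 0.00937 to 0.0476) and in the other settings (0.78 to 0.91). No value that was called changed its sign. With library size alone as the scaling, the within-group r of *Cd74* passed the threshold with the monocyte and recruited macrophage markers (0.61, permutation adjusted p = 0.038) and with the class I genes (0.71, permutation adjusted p = 0.00542). With RYGB Chow replicate 5 left out, r of *Cd74* moved to 0.68 for the Kupffer cell markers, -0.29 for the B cell markers, 0.46 for the T and NK cell markers, 0.44 for sinusoidal endothelium and 0.16 for the class I genes. The replicate numbers did not pair the mice: of 30 pairs 5 had a correlation of deviations over 0.1 (-0.26 to 0.16), and 3 of 20 mice correlated best with their own number. With the replicate block *Ctss* in Sham Chow vs. Sham HFD was 0.81 (edgeR adjusted p = 0.0347), 1 of the 8 was called there and 0 elsewhere, so it changed no call. A stricter filter (CPM of at least 5) left *Ciita* and *H2-DMa* untested. Depth limits *Ciita*, with 12 to 85 counts per mouse, and 5 mice per group limit the rest.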

Other observations

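The 15 class I antigen presentation genes, which load peptides from inside the cell for CD8 T cells, were compared in the same way. In Sham Chow vs. RYGB Chow edgeR called 0, where 0.057% of all genes were called, with 1 at an unadjusted p under 0.05 (10.8% of all genes). In Sham Chow vs. Sham HFD it called 0, where 21.6% of all genes were. In Sham HFD vs. RYGB HFD it called 1, where 16.4% of all genes were, the class I gene *H2-Q7* (0.74, edgeR adjusted p = 0.0447). *H2-Q7* kept its call in 11 of the 20 fits without 1 mouse. The other 9 fits gave 0.65 to 0.77. Without RYGB Chow replicate 5, 3 were called in Sham Chow vs. Sham HFD, the immunoproteasome subunit *Psmb9* (0.62) and the peptide transporter *Tap1* (0.43) higher and *H2-Q7* (-0.65) lower, where 0 had been called with it. Also without it, *H2-T23* (0.40) was called higher in RYGB Chow vs. RYGB HFD, where 15 of 15 estimates lay above 0, *B2m* (-0.22) was called lower in Sham HFD vs. RYGB HFD beside *H2-Q7*, and *H2-Q7* (0.97) was called in the interaction. Without that mouse 12276 genes were tested in all. Of these 2880 were called in Sham Chow vs. Sham HFD, 2197 in Sham HFD vs. RYGB HFD, 301 in RYGB Chow vs. RYGB HFD and 628 in the interaction. The median of the 15 in Sham Chow vs. RYGB Chow was 0.15 with that mouse and -0.13 without it.

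B cell markers, the other class II positive lineage, were low: 2 of 7 were tested. *Cd79b*, a signalling chain of the B cell receptor, was called lower in Sham HFD vs. RYGB HFD (-0.86, edgeR adjusted p = 0.0177), where 16.4% of all genes were called. It lost the call without RYGB HFD replicate 2 (-0.74, edgeR adjusted p = 0.0505). In the same comparison *Cd74* was 0.07 (95% interval -0.45 to 0.59).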
